A study of Arabidopsis thaliana with 11 samples.

Results

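RCA, PSAN and LHCB4.3 are nuclear genes of photosynthesis in Arabidopsis thaliana, and their transcripts were followed here through 4 chromosome-number groups. Each is read by a single probe set of the ATH1 array, which represents the locus AT2G39730 for RCA, AT5G64040 for PSAN and AT2G40100 for LHCB4.3. They are 3 of the 22746 plant probe sets on the array, of which 13513 are annotated with exactly 1 gene. The genes were picked by name with results of these same arrays already known. Their levels and group differences are therefore a description, and no p-value is given for them.

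The samples were whole seedlings of ecotype C24, all of 1 stock code and at developmental stage 1.02, grown on agar under 16 h days at 21 °C and 8 h nights at 18 °C. Tetraploids (4 chromosome sets, n = 3) had been made with colchicine. Triploids (3 sets) came from crosses of a tetraploid with a diploid and carry the title codes TFE (n = 3) and TME (n = 3), which the labels do not spell out. Diploids (2 sets, n = 2) were C24 itself. The labels do not say how many plants went into an array, whether replicates were separate sowings, or how many colchicine-derived lines were used, so the spread between arrays may be technical.

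Photosynthetic complexes are built from both chloroplast-encoded and nuclear-encoded subunits, and the 3 genes act at different points of the process. LHCB4.3 encodes a form of CP29, a minor chlorophyll-binding antenna protein that links the outer light-harvesting complexes to the core of photosystem II. PSAN encodes a subunit on the lumen side of photosystem I, where the electron carrier plastocyanin docks. RCA encodes Rubisco activase, which uses ATP to clear inhibitory sugar phosphates from Rubisco so that the enzyme can fix carbon dioxide. All are expressed mainly in green tissue. In whole seedlings, fewer green cells and less transcript per cell cannot be told apart.

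Signals are linear MAS5 intensities, a number per probe set that has no read depth behind it, and every array had been scaled to a 2% trimmed mean of 100.01. All differences are thus relative to the rest of the array, and a change in total RNA per cell is not visible. The number of arrays limits the precision. Rank correlations over the 15075 probe sets kept after the filter on dim signals ran from 0.942 to 0.973 among 10 arrays, while triploid TFE replicate 3 reached only 0.861 to 0.88 with the others. Of the markers of other tissues, 3 of 7 root genes and 3 of 3 genes of the guard cell lineage had a named probe set, and the seed, shoot meristem and epidermis lists had none. PYK10, a beta-glucosidase abundant in roots, was bright on every array, with a lowest signal of 2666, so this root marker was detected in the whole plants. The summed signal of the guard cell lineage genes was 91.1 to 120.7 in tetraploids, 77.7 to 145.8 in triploid TFE, 60.8 to 94.5 in triploid TME, and 80.4 and 107.6 in diploids. Within this list FMA was higher on every tetraploid array than in diploids (log2 difference 0.45 ± 0.37, SE; limma, adjusted p = 0.87) and SPCH lower on every tetraploid array (-0.30 ± 0.39, SE; limma, adjusted p = 0.95). Tetraploids lay wholly below diploids for 13.7% of all probe sets kept, and the share wholly above is not given here. MUTE, of the guard cell lineage, stayed below the percentile 40 of every array. All of RCA, PSAN and LHCB4.3 lay above the percentile 40 on all 11 arrays.

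The clearest pattern belonged to LHCB4.3, whose signal was lower on each of the 9 polyploid arrays than on either diploid array. It was 295.9, 366.2 and 314.1 in tetraploids, 441.8, 383.7 and 303.5 in triploid TFE, 374.2, 389.7 and 454.7 in triploid TME, and 497.0 and 576.0 in diploids (replicates in order). The diploid arrays thus stood above all others, and the polyploid groups overlapped in part. Of all probe sets kept, 2.57% had every polyploid array below both diploid arrays.

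Group means of LHCB4.3 followed the number of chromosome sets. The mean signal was 325 ± 36.5 in tetraploids, 376 ± 69.4 in triploid TFE, 406 ± 42.7 in triploid TME (SD, n = 3 each) and 536 ± 55.8 in diploids (SD, n = 2). In this order the neighbours tetraploid and triploid TFE overlapped, as did both triploid groups, while triploid TME and diploid did not. Tetraploids lay wholly below triploid TME as well (log2 difference -0.32 ± 0.14, SE), as they did for 6.59% of all probe sets kept. Within a group the arrays spanned 0.31 on the log2 scale in tetraploids, 0.54 in triploid TFE, 0.28 in triploid TME and 0.21 in diploids, so the widest spread was that of triploid TFE.

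**Figure D1:**
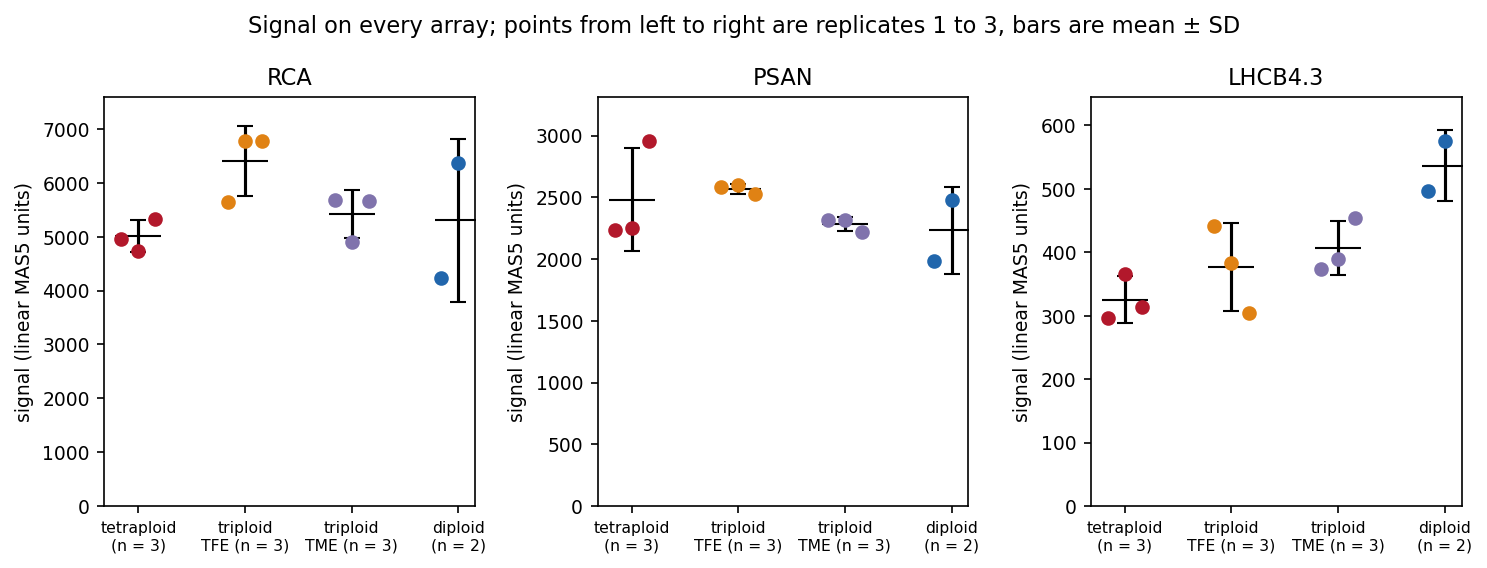
Linear MAS5 signal of RCA, PSAN and LHCB4.3 on each array (points, replicates from left to right), with the group mean and SD as bars. LHCB4.3 lies between 295.9 and 454.7 on the 9 polyploid arrays and at 497.0 and 576.0 on the diploid arrays, whereas the diploid arrays span much of the range of RCA.

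As fitted log2 differences, LHCB4.3 stood at -0.72 ± 0.16 (SE) in tetraploids versus diploids, at -0.52 ± 0.16 in triploid TFE versus diploids and at -0.40 ± 0.16 in triploid TME versus diploids. In linear terms these were 0.606, 0.695 and 0.756 times the diploid level. Every array of the polyploid group lay below every diploid array for 13.7% of all probe sets kept in tetraploids, 10.7% in triploid TFE and 11.5% in triploid TME. All of these comparisons share the 2 diploid arrays, so their common direction is not independent support. The fit across all probe sets (limma, Benjamini-Hochberg adjusted p under 0.05) called 0 of the 3 genes in each of the 8 comparisons made. It called 0.829% of all probe sets in tetraploids versus diploids, 0% in triploid TFE versus diploids and 0.126% in triploid TME versus diploids. Between the polyploid groups it called 0.0265% for triploid TFE versus triploid TME, 0.471% for tetraploid versus triploid TFE and 0% for tetraploid versus triploid TME. Under other settings of the fit LHCB4.3 was called in 7 of 20 for tetraploids versus diploids. The number of all probe sets called also moved with the setting. Because LHCB4.3 was picked with results of these arrays known, these calls are no test of it.

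The size of the LHCB4.3 difference in tetraploids versus diploids stayed between -0.83 and -0.62 when single arrays were left out. In triploid TFE versus diploids it was -0.38 without replicate 3 of that group, whose LHCB4.3 signal of 303.5 was the lowest among the triploids. On that array 27.3% of all probe sets kept had their lowest value of the series, beside 5.45% to 10.5% on the other arrays. In triploid TME versus diploids the LHCB4.3 difference ranged from -0.51 to -0.30 with single arrays left out.

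Some other measures moved with these groups and some did not. Actin probe sets at the 3-prime and 5-prime ends of the transcript, which report on RNA quality, had a ratio of 0.308 to 0.403 in tetraploids, 0.559 to 0.92 in triploid TFE, 0.539, 0.466 and 0.407 in triploid TME, and 0.506 and 0.524 in diploids. For actin, tetraploids thus lay below the diploids, triploid TFE above them and triploid TME on both sides. The same ratio for GAPDH was 0.922 to 1.13 in tetraploids, and 1.03 and 0.87 in diploids. For ubiquitin it was 1.29 and 1.22 in tetraploid replicates 1 and 2, with replicate 3 between the diploid values of 0.981 and 1.04. In GAPDH and ubiquitin every polyploid group overlapped with the diploids, so only the actin ratio separated tetraploids from diploids. The part of RNA quality in the LHCB4.3 difference was not tested. The root markers EXPA7 and EXPA18, expansins of root hairs, were higher on every tetraploid array than in diploids, with EXPA18 at 59.9 to 81.7 in tetraploids against 32.3 and 37 in diploids (log2 difference 1.08 ± 0.31, SE; limma, adjusted p = 0.18). EXPA18 was also higher on every triploid TME array (0.68 ± 0.31, SE; adjusted p = 1), and it differed by 0.32 ± 0.31 in triploid TFE versus diploids (adjusted p = 0.74). Of all probe sets kept, 13.7% lay wholly below diploids in tetraploids and 11.5% in triploid TME. The shares wholly above, as for these expansins, are not given here. EXPA7 differed from diploids by 0.61 ± 0.52 in tetraploids, -0.58 ± 0.52 in triploid TFE and -0.05 ± 0.52 in triploid TME (limma, adjusted p = 0.87, 0.72 and 1). The summed signal of the 3 measured root genes was 3274 to 3749 in tetraploids, 3087 to 4150 in triploid TFE, 3135 to 3486 in triploid TME, and 2729 and 3275 in diploids, and nearly all of it was PYK10. The part of tissue proportions was not tested. With hybridisation control level (the signal of spiked-in transcripts) as a covariate, the LHCB4.3 difference was -0.71 ± 0.16 in tetraploids, -0.38 ± 0.26 in triploid TFE and -0.34 ± 0.19 in triploid TME, each versus diploids.

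CP29 is encoded by 3 genes, and the array reads all of them. LHCB4.1 had 4756, 5284 and 5706 in tetraploids, 5468, 6057 and 6211 in triploid TFE, 6183, 5170 and 5693 in triploid TME, and 4353 and 5418 in diploids. LHCB4.2 had 1794, 2019 and 2355 in tetraploids, 2164, 2146 and 1984 in triploid TFE, 2170, 2025 and 2113 in triploid TME, and 1768 and 2084 in diploids. Neither shared the low polyploid level of LHCB4.3. No polyploid array lay below both diploid arrays for LHCB4.1 or LHCB4.2. Of the 9 polyploid arrays, 6 lay above both for LHCB4.1 and 5 for LHCB4.2.

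Their log2 differences were small and had the opposite sign. In tetraploids versus diploids they were 0.11 ± 0.13 (SE) for LHCB4.1 and 0.09 ± 0.12 for LHCB4.2 (limma, adjusted p = 0.94 and 0.96). Both turned when diploid replicate 1 was left out, to -0.05 for LHCB4.1 and -0.03 for LHCB4.2. In triploid TFE versus diploids LHCB4.1 had 0.28 ± 0.13 (adjusted p = 0.55) and LHCB4.2 had 0.13 ± 0.12 (adjusted p = 0.74). With the hybridisation control level in the fit they turned to -0.08 for LHCB4.1 and -0.01 for LHCB4.2. In triploid TME versus diploids the differences were 0.22 ± 0.13 and 0.13 ± 0.12 (adjusted p = 1 for both), above 0 in all 20 other settings.

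Unlike the direction of the paralogs, the gap between them and LHCB4.3 kept its sign. The log2 difference of LHCB4.3 minus that of LHCB4.1 was -0.83 in tetraploids versus diploids, with -0.91 to -0.71 over 20 other settings. It was -0.81 in triploid TFE (-0.99 to -0.30) and -0.63 in triploid TME (-0.71 to -0.39). Against LHCB4.2 the gap was -0.81 in tetraploids, -0.65 in triploid TFE and -0.53 in triploid TME. Within single arrays, the log2 ratio of LHCB4.3 to LHCB4.1, set to a diploid mean of 0, was -0.82, -0.67 and -1.0 in tetraploids, -0.45, -0.80 and -1.17 in triploid TFE, -0.86, -0.55 and -0.46 in triploid TME, and 0.05 and -0.05 in diploids. These gaps show unequal change among probe sets of 1 family and rest on the same LHCB4.3 values as above. Any signal shared between related transcripts cannot be separated here.

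**Figure D2:**
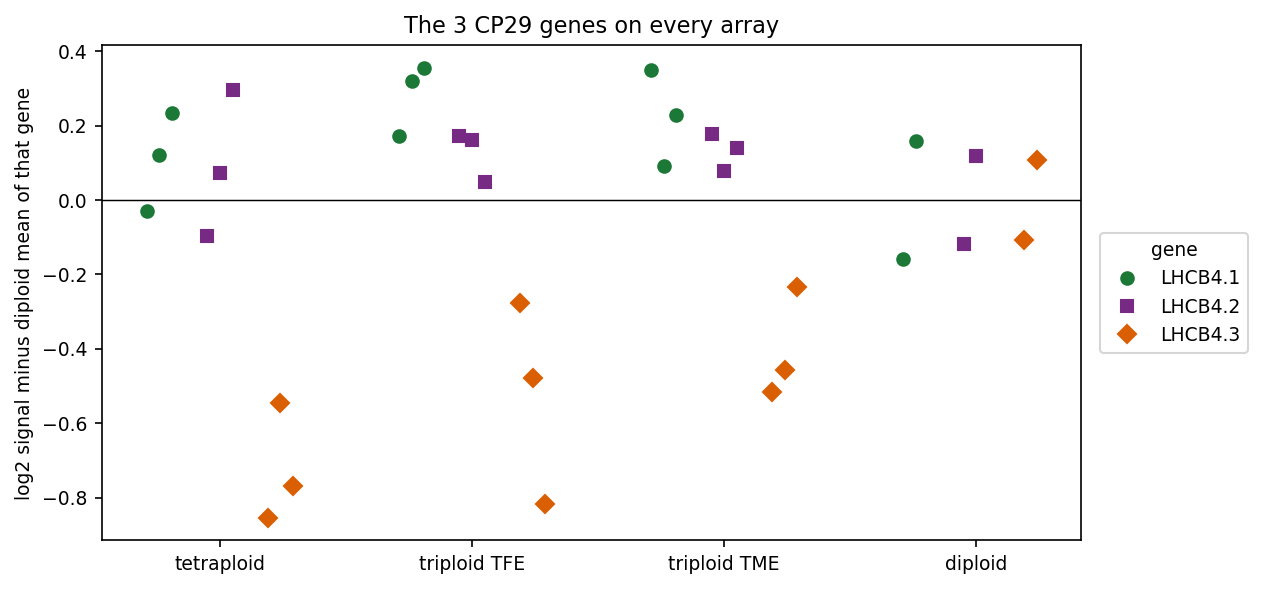
Log2 signal of LHCB4.1, LHCB4.2 and LHCB4.3 on each array, less the diploid mean of the same gene, by group. On every polyploid array the LHCB4.3 point lies below those of both paralogs, and the gap from LHCB4.1 runs from -0.45 to -1.17, while the diploid points of all 3 genes lie near 0.

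PSAN, the photosystem I subunit, varied little. Its signal was 2235, 2251 and 2959 in tetraploids, 2584, 2603 and 2524 in triploid TFE, 2319, 2314 and 2217 in triploid TME, and 1983 and 2480 in diploids. Triploid TFE was the tightest group, and all of its arrays lay above both diploid arrays and all triploid TME arrays, with diploid replicate 2 only just below them. Every array of triploid TFE lay above every diploid array for 11.9% of the probe sets kept, and above every triploid TME array for 7.29%. Tetraploids split, with replicate 3 as the brightest array of all and replicates 1 and 2 close to triploid TME.

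The group means of PSAN were 2481 ± 414 in tetraploids, 2570 ± 40.9 in triploid TFE, 2283 ± 57.2 in triploid TME (SD, n = 3 each) and 2232 ± 351 in diploids (SD, n = 2). Ordered by mean, triploid TFE and tetraploid overlapped, as did tetraploid and triploid TME, and triploid TME and diploid. The log2 differences from diploids were 0.15 ± 0.13 (SE) in tetraploids, 0.21 ± 0.13 in triploid TFE and 0.04 ± 0.13 in triploid TME. Each is smaller than the gap of 0.32 between the diploid arrays themselves. Without diploid replicate 1 they were -0.01, 0.05 and -0.12, and without diploid replicate 2 they were 0.31, 0.37 and 0.20. Between the triploids the difference, TFE minus TME, was 0.17 ± 0.12 and stayed at 0.15 to 0.18 with single arrays left out, but was 0.06 with the hybridisation control level in the fit. For tetraploid versus triploid TFE and triploid TME the differences were -0.06 ± 0.12 and 0.11 ± 0.12. The first turned to 0.04 under quantile normalization and to 0.11 with the hybridisation control level in the fit, and was 0.01 without tetraploid replicate 1. The second was -0.03 without tetraploid replicate 3.

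PSAE-1, a stromal subunit of photosystem I and the only other nuclear gene of that complex's list with a probe set of exactly 1 gene, averaged 3721 ± 606 in tetraploids, 4438 ± 596 in triploid TFE, 4361 ± 453 in triploid TME (SD, n = 3 each) and 3717 ± 469 in diploids (SD, n = 2). It differed from diploids by -0.01, 0.25 and 0.23 on the log2 scale in tetraploids, triploid TFE and triploid TME (limma, adjusted p = 1, 0.61 and 1). PSAN and PSAE-1 thus both had their highest mean in triploid TFE, and neither was called.

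RCA had the widest spread among the diploids. Its signal was 4959, 4743 and 5328 in tetraploids, 5653, 6778 and 6785 in triploid TFE, 5692, 4906 and 5662 in triploid TME, and 4236 and 6368 in diploids. The lowest array of the series was a diploid, and the other diploid was exceeded only by triploid TFE replicates 2 and 3. Tetraploids lay wholly below triploid TFE, a separation that 8.09% of the probe sets kept showed in the same direction.

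Mean RCA signals were 5010 ± 296 in tetraploids, 6405 ± 652 in triploid TFE, 5420 ± 445 in triploid TME (SD, n = 3 each) and 5302 ± 1508 in diploids (SD, n = 2). From the highest mean down, triploid TFE overlapped with triploid TME, triploid TME with diploid, and diploid with tetraploid. On the log2 scale RCA differed from diploids by -0.05 ± 0.16 (SE) in tetraploids, 0.30 ± 0.16 in triploid TFE and 0.06 ± 0.16 in triploid TME. The diploid arrays themselves lay 0.59 apart, more than any difference between group means. Without diploid replicate 1 these differences were -0.35, 0.00 and -0.24, and without diploid replicate 2 they were 0.24, 0.59 and 0.35. For tetraploids and triploid TME the direction relative to diploids therefore depended on which diploid array was used.

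Among the polyploids RCA had log2 differences of -0.35 ± 0.14 (SE) for tetraploid versus triploid TFE, -0.11 ± 0.14 for tetraploid versus triploid TME and 0.24 ± 0.14 for triploid TFE versus triploid TME. The array measures differed as well. The geometric mean signal of the 18 spiked-in hybridisation control probe sets was 242 to 257 in tetraploids, 372 to 627 in triploid TFE, 272 to 425 in triploid TME, and 157 and 321 in diploids. Diploid replicate 1, the lowest array for RCA, also had the lowest control level, and triploid TFE replicates 2 and 3, the highest arrays for RCA, had the highest at 594 and 627. Other arrays did not follow this order. Diploid replicate 2 had a higher RCA signal than triploid TFE replicate 1 (6368 against 5653) at a lower control level (321 against 372). With this level in the fit, the difference between tetraploid and triploid TFE turned to 0.13 and that between triploid TFE and diploid to -0.25. Under quantile normalization they were -0.06 and -0.04. In both comparisons the groups did not overlap in control level, so level and group cannot be told apart. The part of the control level in the RCA differences was not tested.

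**Figure D3:**
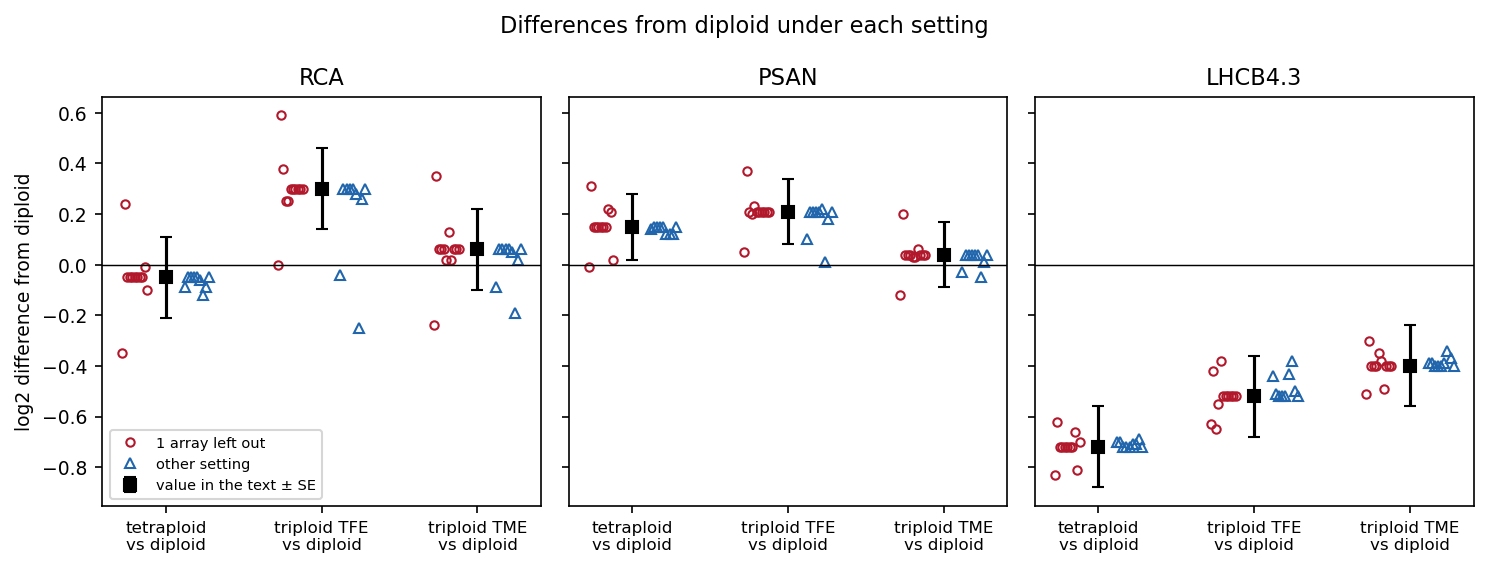
Log2 difference of RCA, PSAN and LHCB4.3 from diploids in the 3 polyploid groups, as given in the text (black squares with SE), with 1 array left out (red circles) and under the other settings (blue triangles). LHCB4.3 stays below 0 throughout, between -0.83 and -0.30, whereas RCA runs from -0.35 to 0.59 and crosses 0 in every comparison.

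RCA and PSAN varied together in part over the arrays, and LHCB4.3 followed neither. As a description over 11 arrays that share their groups, scaling and control levels, RCA and PSAN had r = 0.592, RCA and LHCB4.3 had r = -0.034, and PSAN and LHCB4.3 had r = -0.313. Without triploid TFE replicate 3 these were 0.59, 0.187 and -0.274.

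A further view treats ploidy as a number. The slope per chromosome set was -0.35 ± 0.08 (SE) on the log2 scale for LHCB4.3, 0.07 ± 0.07 for PSAN and -0.05 ± 0.09 for RCA. In this fit 0.425% of all probe sets were called. The slope of LHCB4.3 stayed between -0.41 and -0.29 over 19 other settings, and it was called in 4 of them. Those 4 settings called from 63 to 230 of all probe sets kept, beside 64 in the fit given above. As LHCB4.3 was picked with results of these arrays known, these calls are no test of it. The mean of both triploids minus the midpoint of diploid and tetraploid, which asks whether an odd number of sets departs from the even ones, was 0.20 ± 0.10 for RCA, 0.05 ± 0.09 for PSAN and -0.10 ± 0.11 for LHCB4.3, in a comparison that called 0% of all probe sets. For RCA it turned to -0.02 under quantile normalization and to -0.16 with the hybridisation control level in the fit. For PSAN it turned to -0.03 under quantile normalization and without diploid replicate 1, and to -0.08 with the hybridisation control level in the fit. For LHCB4.3 it was between -0.16 and -0.03 with single arrays left out, and -0.01 ± 0.17 with the hybridisation control level in the fit.

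Of 143 nuclear genes in 9 lists of photosynthetic functions, 24 had a probe set with exactly 1 gene, and all 24 were kept. No gene of the lists for photoprotection or for regulators had one. Apart from RCA, PSAN and LHCB4.3 there were 21, and limma called 0 of them in each of the 8 comparisons. At an unadjusted p under 0.05 there was 1 of 21 in tetraploids versus diploids, beside 8.42% of all probe sets, and there were 2 in triploid TFE versus diploids, beside 9.08%, and 1 in triploid TME versus diploids, beside 4.5%. Between the polyploid groups there were 0 for triploid TFE versus triploid TME (10.6% of all probe sets), 1 for tetraploid versus triploid TFE (13.5%) and 1 for tetraploid versus triploid TME (4.62%). There were 4 for the triploids against the midpoint of diploid and tetraploid (5.39%) and 2 for the slope (8.28%). In tetraploids, triploid TFE and triploid TME versus diploids, the median log2 differences of the 21 genes were -0.013, 0.076 and 0.030. Over all probe sets they were 0.007, 0.003 and -0.003.

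Among the 21, PORB, a light-dependent enzyme of chlorophyll synthesis, lay opposite to LHCB4.3 relative to diploids. Unlike LHCB4.3, PORB had similar means in the polyploid groups. Its signal was 2517, 2614 and 3051 in tetraploids, 2217, 2780 and 2884 in triploid TFE, 2840, 2610 and 2630 in triploid TME, and 1480 and 2026 in diploids. All 9 polyploid arrays lay above both diploid arrays, as they did for 2.63% of the probe sets kept. The log2 differences from diploids were 0.65 ± 0.15 (SE) in tetraploids, 0.59 ± 0.15 in triploid TFE and 0.64 ± 0.15 in triploid TME, and none passed the threshold (limma, adjusted p = 0.063, 0.36 and 0.19). Without diploid replicate 1 they were 0.42, 0.37 and 0.41, and without diploid replicate 2 they were 0.88, 0.82 and 0.86. With the hybridisation control level in the fit they were 0.59, 0.09 and 0.41. PORB was called in 6 of 20 other settings for tetraploids versus diploids, and in 1 of 20, with array weights, for triploid TME versus diploids. Among the polyploid groups PORB differed by 0.06 at most in size, but by 0.50 between tetraploid and triploid TFE with that level in the fit.

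The remaining chlorophyll genes were flatter. GSA1, which makes the precursor 5-aminolevulinate, lay at 351 to 380 in tetraploids against 396 and 420 in diploids without overlap, and its log2 difference was -0.15 ± 0.15 (SE; limma, adjusted p = 0.90). HEMB1, CHLI2 and CHLM, enzymes of later steps, overlapped between tetraploids and diploids. Tetraploids lay wholly below diploids, as for GSA1, for 13.7% of the probe sets kept.

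Around RCA, the Calvin cycle list held SBPASE, which regenerates the acceptor of carbon dioxide, PRK, phosphoribulokinase, and the loci AT1G56190 and AT3G47650, which carry no gene name here. All 4 had lower means in tetraploids than in diploids, with a median log2 difference of -0.145, and none was called (limma, smallest adjusted p = 0.80). Of all probe sets, 51.1% were higher in tetraploids. Diploid replicate 1 lay below every tetraploid array for SBPASE (1235 against 1257 to 1416) and AT3G47650 (1373.0 against 1373.2 to 1548.5). For PRK and AT1G56190 it lay among the tetraploid arrays. PRK resembled RCA in tetraploid versus triploid TFE, where its signal was 2758 ± 148 in tetraploids and 3538 ± 152 in triploid TFE (SD, n = 3 each). These groups did not overlap, with a log2 difference of -0.36 ± 0.11 (SE) that did not pass (adjusted p = 0.20, the smallest of the 21 genes in this comparison). ATPC1 and AT1G80380, of other lists, were wholly lower in tetraploids there as well, which makes 3 of the 21 genes. Tetraploids lay wholly below triploid TFE for 8.09% of the probe sets kept. Of the 21 genes, 16 had the lower mean in tetraploids in that comparison and 5 the higher, where 50.2% of all probe sets were higher. The median log2 difference was -0.105 beside 0.002 over all probe sets. Hybridisation control levels also differed, at 242 to 257 in tetraploids and 372 to 627 in triploid TFE. Their part in the PRK and list differences was not tested.

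The photosystem II genes PSBW, PSBY and PSB27, for small or accessory subunits, and the genes of photorespiration, HPR and the unnamed loci AT1G80380 and AT1G11860, had no call and no separation of any polyploid group from diploids. Among genes of electron transport and ATP synthase, ATPC2, a second gene for the gamma subunit of chloroplast ATP synthase, was dim, at 25.0 to 37.7 in tetraploids against 41.5 and 57.7 in diploids (log2 difference -0.61 ± 0.31, SE; limma, adjusted p = 0.65). PGRL1B, for a protein of cyclic electron flow, lay at 155.8 to 167.6 in tetraploids against 133.3 and 154.5 in diploids, without overlap (log2 difference 0.17 ± 0.22, SE; limma, adjusted p = 0.95). ATPC1, the main gene for the gamma subunit of ATP synthase, lay at 3221 to 3448 in tetraploids and 2752 and 3767 in diploids. Tetraploids lay wholly below diploids, as for ATPC2, for 13.7% of the probe sets kept. The share wholly above, as for PGRL1B, is not given here.

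**Figure D4:**
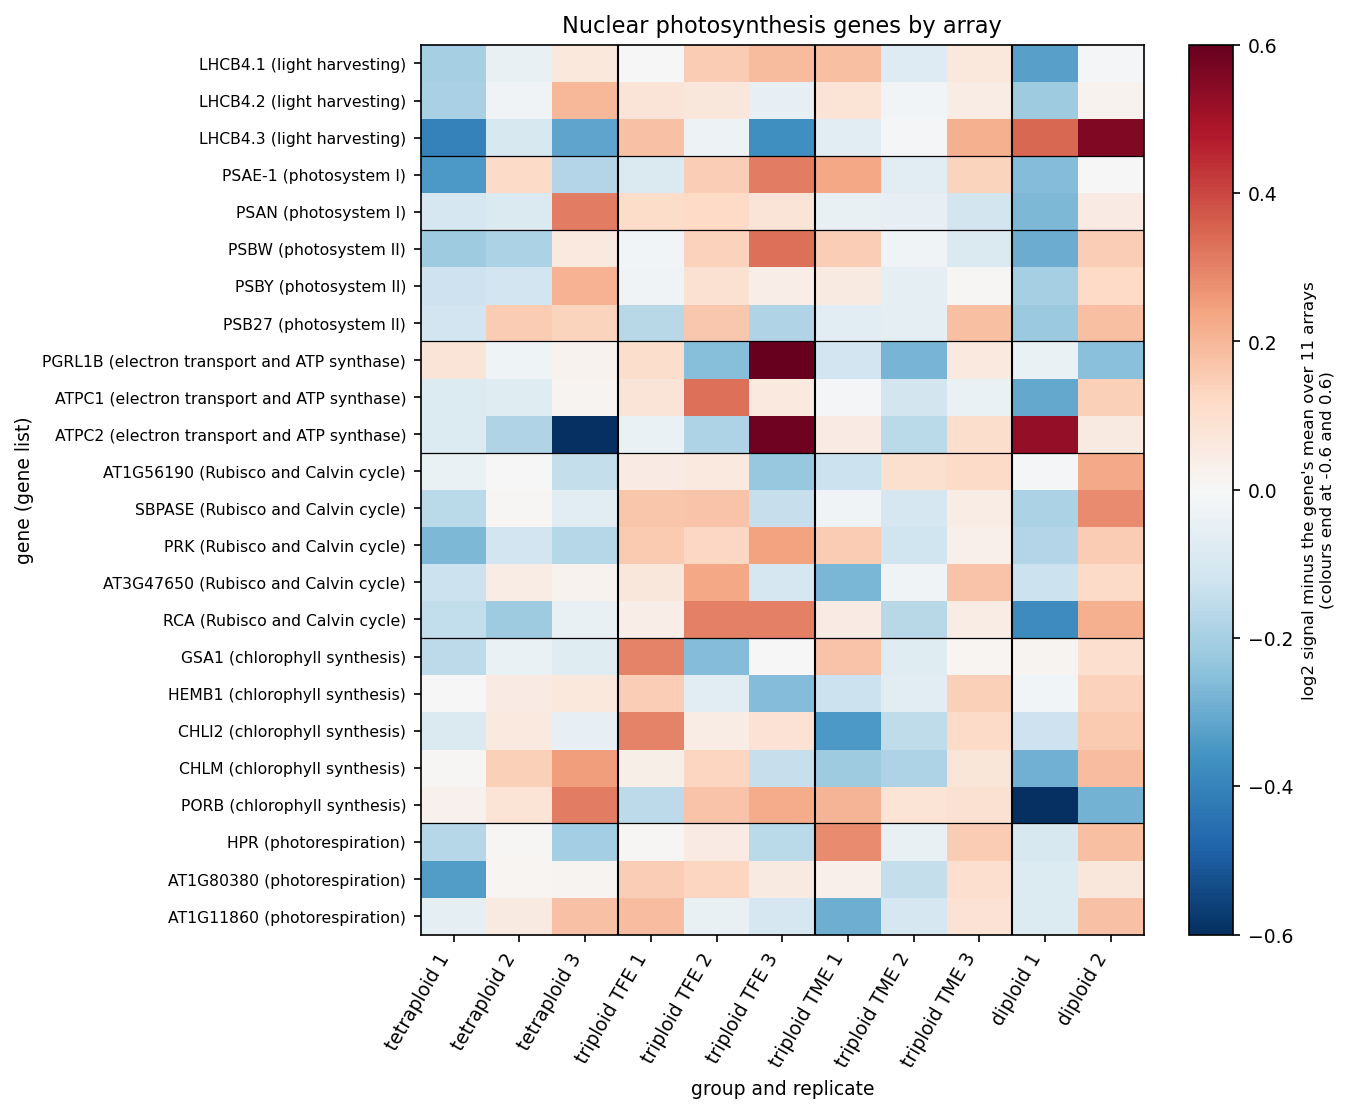
Log2 signal of RCA, PSAN, LHCB4.3 and the 21 other measured nuclear photosynthesis genes on each array, less the mean of the gene over 11 arrays (colour scale ending at -0.6 and 0.6), grouped by gene list. The diploid columns are high in the LHCB4.3 row and low in the PORB row, and diploid replicate 1 is below the mean for 19 of the 21 other genes.

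The diploid arrays differed from each other across the whole list. On diploid replicate 1 only 2 of the 21 other genes lay above their own mean over the arrays, and 9 had their lowest value there, against 8.58% of all probe sets kept. On diploid replicate 2 17 of the 21 lay above their mean and 0 had their lowest value. The median deviation of the 21 genes was -0.177 on diploid replicate 1 and 0.141 on diploid replicate 2, while that of all probe sets was -0.001 and 0.011. RCA followed the list, with deviations of -0.38 and 0.21 on these arrays, and PSAN had -0.27 and 0.05. LHCB4.3 was also the lower on diploid replicate 1, but lay above its own mean on both arrays, with 0.34 and 0.56.

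The transcripts most like each of the 3 genes were taken from the 8161 kept probe sets with 1 gene, by Pearson's r of log2 signal over 11 arrays. For RCA they were ccsA (r = 0.952) and psbK (r = 0.925) of the chloroplast genome, for a protein of cytochrome assembly and a subunit of photosystem II, and the unnamed loci AT2G41840 (r = 0.925) and AT4G01150 (r = 0.917). Without triploid TFE replicate 3, ATPC1 came first with r = 0.941, followed by ccsA, the cytosolic glyceraldehyde phosphate dehydrogenase gene GAPC2 and psbK. For PSAN they were AT4G30680 (r = 0.924), AT5G16030 (r = 0.88), AT5G46190 (r = 0.865) and the photosystem II gene PSBY (r = 0.858), and without that array only AT4G30680 was again among the first 4. For LHCB4.3 they were AT5G23920 (r = 0.936), AT5G28060 (r = 0.919), AT3G44450 (r = 0.918) and AT4G21870 (r = 0.915), of which all but AT5G28060 were also among the first 4 without that array. SPP, for the stromal processing peptidase, entered at r = 0.936 only without triploid TFE replicate 3 and had r = 0.614 with it. These values rank likeness among many candidates and are given without a test.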

How the data were processed

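The deposited values were linear intensity values, 1 MAS5 signal per probe set and array, as the submitters' processing notes name it without a version. The microarray files were used as 1 table of 11 arrays with 22810 probe sets, of which 64 controls were set aside. Signals below 2.279, the percentile 10 of all plant probe sets, were raised to it before taking log2. Probe sets above the percentile 40 of their array on at least 2 arrays were kept (15075, 66.3%). Group means over all 11 arrays, or the number of chromosome sets as a covariate, were fitted with limma 3.58.1 in R 4.3.3 (variances moderated with an intensity trend), with 2-sided p-values adjusted by Benjamini-Hochberg over the probe sets kept. The fit was tested on simulated data. Every adjusted p-value given is limma's.

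Genes were named by joining the platform's annotation to the TAIR10.1 gene table, in which 13436 of 13513 probe sets with 1 gene matched. No sequences or coordinates were used. The genes described and the gene lists were chosen with earlier results of these arrays known. Named were RCA, PSAN and LHCB4.3, the measured list genes, and the 4 probe sets most like each of the 3 genes. Other settings were quantile normalization, log2(signal + 16), no filter, a stricter filter, no intensity trend, array weights, the level of the hybridisation controls as a covariate, only the groups compared, a replicate block, and leaving out each array. Deviations from group means correlated above 0.1 in 3 of 15 same-numbered pairs, which are all 3 pairs of tetraploid with triploid TME (r = 0.103, 0.121 and 0.14). These values are small and close to the cut, and triploid TFE with triploid TME reached 0.098 at replicate 2. They do not settle whether the numbers pair the arrays. The labels name no shared batch.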

Additional observations from a re-analysis of the deposited data

How the results depend on the processing

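The count of other nuclear photosynthesis genes called, 0 in each of the 8 comparisons, became 1 in a few settings, each time PORB and higher in the polyploids. For tetraploid versus diploid it was 1 under quantile normalization, under the stricter filter, with array weights, with the level of the hybridisation controls in the fit, and without triploid TFE replicate 1 or triploid TFE replicate 3, so it ran from 0 to 1 with single arrays left out. It was 1 with array weights for triploid TME versus diploid, and 1 with the level of the hybridisation controls for the slope. In the other 150 combinations of comparison and setting it was 0. With the replicate block it was 0 in all 8 comparisons, and the LHCB4.3 difference in tetraploids versus diploids was -0.69 ± 0.17 (SE). In tetraploid versus triploid TME, where all 3 same-numbered pairs correlated above 0.1, the block changed no call, with 0 calls over all probe sets with and without it. In the other comparisons no pair did (r down to -0.19), and 3 of 11 arrays correlated best with their own number. The number of all calls moved widely, from 29 without diploid replicate 2 to 271 with array weights around 125 for tetraploid versus diploid, from 1 to 89 around 19 for triploid TME versus diploid, from 0 to 126 around 71 for tetraploid versus triploid TFE and from 6 to 230 around 64 for the slope. It moved from 0 to 7 around 4 for triploid TFE versus triploid TME, from 0 to 6 around 0 for triploid TFE versus diploid, from 0 to 4 around 0 for tetraploid versus triploid TME and from 0 to 1 around 0 for the midpoint. The share called is therefore no fixed background. The cause was not tested. The midpoint and the slope use all groups, so a fit on only the groups compared was not run for them. Where 1 diploid array is left out, the remaining array is assumed to vary like the other groups.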
